A study of Homo sapiens with 16 samples.

Results

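A set of 10 keratin genes were followed by RNA-seq in HCT116, an established human colorectal carcinoma line, namely *KRT80*, *KRT8*, *KRT18*, *KRT19*, *KRT20*, *KRT23*, *KRT7*, *KRT17*, *KRT81* and *KRT86*. They are 10 of the 33937 genes of the deposited count table, and 10 of its 43 genes with a keratin symbol. The set was chosen by a measured value, the high level of *KRT80* in the libraries labelled NAA40-KD (-dox) relative to those labelled SCR (-dox). The levels of the members in that comparison are therefore given as a description with no test and support nothing. The cells carried a construct for an inducible hairpin (shRNA), expressed when doxycycline (dox) is added and directed against *NAA40*, the gene of a histone N-terminal acetyltransferase, or scrambled as a control (SCR). There were 4 groups of 4 total RNA libraries. The control line gave SCR (-dox) and SCR (+dox), and the knockdown line gave NAA40-KD (-dox) and NAA40-KD (+dox). As a label, +dox stands for 96 h with dox at 1 µg/ml and -dox for the same time without it. All groups share the HCT116 background and an shRNA construct, 1 knockdown line was sequenced, and the sources used here do not say whether it is a clone.

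Keratins are the intermediate filament proteins of epithelial cells. An acidic type I chain and a basic type II chain pair to build the filament, so the level of one partner is commonly read beside that of the other. Of the members, *KRT18*, *KRT19*, *KRT20*, *KRT23* and *KRT17* encode type I chains and lie on chromosome 17, except *KRT18* on chromosome 12, whereas *KRT80*, *KRT8*, *KRT7*, *KRT81* and *KRT86* encode type II chains and lie on chromosome 12. The pair of *KRT8* and *KRT18*, with *KRT19*, forms the filaments of simple epithelia such as the colon, and *KRT20* marks differentiated cells of the gastrointestinal epithelium. *KRT7* belongs to simple and ductal epithelia and is usually low in the colon, *KRT17* to basal and injured epithelium, and *KRT81* and *KRT86* to the hair shaft.

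Total counts per library ran from 11065606 to 13855486. Levels are given as CPM, the counts of a gene scaled to a common library total, after TMM normalization, a scaling that evens out differences in library composition. *NAA40*, the targeted gene, averaged 11.7 ± 1.75 CPM (SD, n = 4) in the libraries labelled NAA40-KD (-dox), 30.3 ± 1.57 CPM in NAA40-KD (+dox), 29.6 ± 3.66 CPM in SCR (-dox) and 27.3 ± 1.18 CPM in SCR (+dox). It was thus low in the knockdown libraries labelled as untreated and not in those labelled as dox-treated, which goes against the labels. The groups follow the sample titles. In the count table the NAA40-KD (-dox) columns are headed KD-wDox and the NAA40-KD (+dox) columns KD-Dox. The letter w could be read as with or as without. Every direction below refers to the label of a library and not to a verified state of *NAA40*. Replicate 4 of NAA40-KD (-dox) stood apart. Its genes differed from the rest of its group by a median of 0.759 on the log2 scale, against 0.0924 to 0.227 in the other 15 libraries, and mitochondrially encoded genes took 5.03% of its counts, against 6.42 to 14.3%. The 10 keratins took 1.02% of its counts and 0.329 to 0.554% elsewhere, so fold changes of that group are also given without it. Of 6 markers of colon epithelium, 3 were above 1 CPM in each group mean (*EPCAM*, *CDH1* and *CDX2*), while *VIL1*, *CDH17* and *GPA33* were below it. Among markers of stratified epithelium, *KRT5*, *KRT14*, *KRT1*, *KRT4* and *TP63* had group means between 0 and 0.327 CPM, while *KRT10* averaged 21.5 to 34.4 CPM and *KRT13* 0.627 to 2.04 CPM. The mesenchymal genes *COL1A2*, *DCN* and *LUM* were at 0 or near it, although *COL1A1* was present, with up to 189 CPM in the library that stood apart, and *ZEB1* averaged up to 3.16 CPM and *TWIST1* up to 1.20 CPM. In bulk RNA, fewer cells with a transcript and less transcript per cell cannot be told apart.

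A pair of sequence stretches bear on how the values can be read. The 250 bases before the RefSeq start of *KRT20* (GRCh38.p14, chr17:40885243-40885492, minus strand) are shown because *KRT20* had the largest tested difference of the members. The capitals mark TTTAT, the core recognised by the intestinal factor CDX2, searched on both strands, where its reverse complement reads ATAAA.

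*KRT20* upstream region: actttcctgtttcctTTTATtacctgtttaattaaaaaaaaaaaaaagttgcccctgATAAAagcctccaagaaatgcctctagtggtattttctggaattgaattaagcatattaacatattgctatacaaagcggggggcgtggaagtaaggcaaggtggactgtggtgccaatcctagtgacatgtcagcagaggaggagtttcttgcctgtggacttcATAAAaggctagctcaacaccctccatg

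The 3 matches begin 235, 193 and 28 bases before the start. TTTAT occurs in 32.8% of 34943 RefSeq windows of the same length, so a match is common and is a description only. TATAAA, which itself contains ATAAA, had 0 matches here and occurs in 10.8% of the windows, and TGANTCA, the AP-1 motif, had 0 matches and occurs in 6.59%. RefSeq windows were at hand for 2 of the 10 members, *KRT20* and *KRT8*. The level of *CDX2* itself was 19.4 ± 0.627 CPM in SCR (+dox) and 20.9 ± 1.29 CPM in NAA40-KD (+dox).

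The second stretch shows why *KRT81* and *KRT86* were read together. Their coding sequences (GENCODE release 29) were identical at 90.5% of 1458 aligned bases and shared an unbroken run of 605 bases. A window of 60 bases from that run lies in exon 1 of *KRT81* (GRCh38, chr12:52291346-52291405, minus strand) and in exon 3 of *KRT86* (chr12:52301977-52302036, plus strand).

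*KRT81*, 60 coding bases: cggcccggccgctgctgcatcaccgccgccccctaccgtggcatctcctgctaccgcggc

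*KRT86*, 60 coding bases: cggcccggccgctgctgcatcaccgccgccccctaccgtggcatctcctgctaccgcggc

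A read from this window cannot be assigned to one of the genes by its sequence. Of all windows of 50 bases in the *KRT81* transcripts, 43.7% recurred in another gene, and 37.5% of those of *KRT86* did. The share was 24.5% for *KRT18*, 16.1% for *KRT8* and 0% for *KRT20*, with both strands searched. *KRT18* shared most with *KRT8* (12.7%), and *KRT8* shared most with *KRT18* (5.94%). Both also have many processed pseudogenes, with a highest share of 4.5% for *KRT18* (*KRT18P11*) and 5.49% for *KRT8* (*KRT8P3*). The 28 listed pseudogenes of *KRT8* together held 97 to 289 counts per library, against 16829 to 62579 for *KRT8* itself. *KRT8* (chr12:52897187-52949954, minus strand) and *KRT18* (chr12:52948871-52952901, plus strand) overlap in 525 exonic bases on opposite strands, 7.63% of the exons of the former and 16.3% of the latter. Whether the counting used strand is not given in the sources used here, so reads from these bases cannot be told apart.

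The members spanned more than 4 orders of magnitude per exon length. In SCR (+dox), *KRT19* was highest at 669 ± 69.9 CPM per kilobase of exon, followed by *KRT8* at 298 ± 37.4 and *KRT18* at 234 ± 33.8. The next members were *KRT23* at 4.65 ± 0.607, *KRT20* at 3.57 ± 0.395 and *KRT80* at 3.19 ± 0.548 CPM per kilobase. The SD ranges of *KRT20* and *KRT80* overlapped, and that of *KRT23* lay above both. *KRT81*, *KRT86* and *KRT7* stood between 0.440 and 0.744 CPM per kilobase, with overlapping SD ranges, and *KRT17* was last at 0.0484 ± 0.0452. The 3 keratins of simple epithelium made up 98.7 to 99.0% of the summed level per length of the members in the group means. *KRT80* went from rank 6 in both SCR groups to rank 4 in both NAA40-KD groups, where it reached 5.19 ± 0.825 and, in NAA40-KD (-dox), 13.6 ± 2.63 CPM per kilobase. *KRT20* went the other way, from rank 5 in both SCR groups to rank 6 in NAA40-KD (+dox) and rank 8 in NAA40-KD (-dox), and *KRT23* from rank 4 to rank 5 in both. *KRT81* and *KRT86* each stood 1 rank higher in NAA40-KD (-dox) than elsewhere. These ranks are a description, as *KRT80* was selected on its level.

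**Figure D1:**
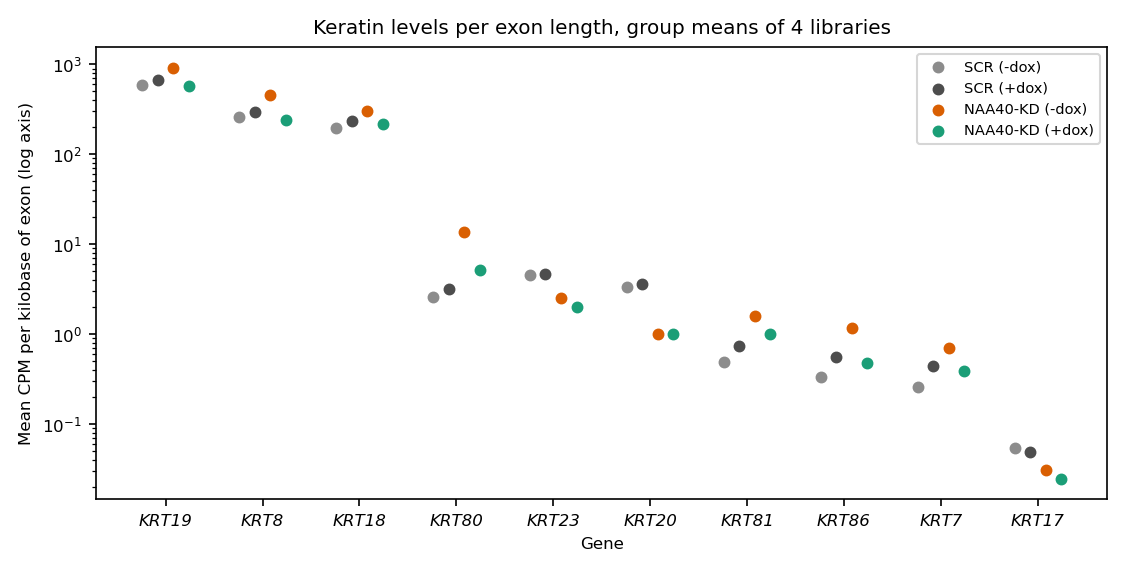
Mean level of the 10 keratins in CPM per kilobase of exon (log axis), 1 point for each of the 4 groups of 4 libraries, ordered by gene. *KRT19*, *KRT8* and *KRT18* lie near or above 200 in every group and all others below 15, and *KRT80* is highest in NAA40-KD (-dox).

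**Figure D2:**
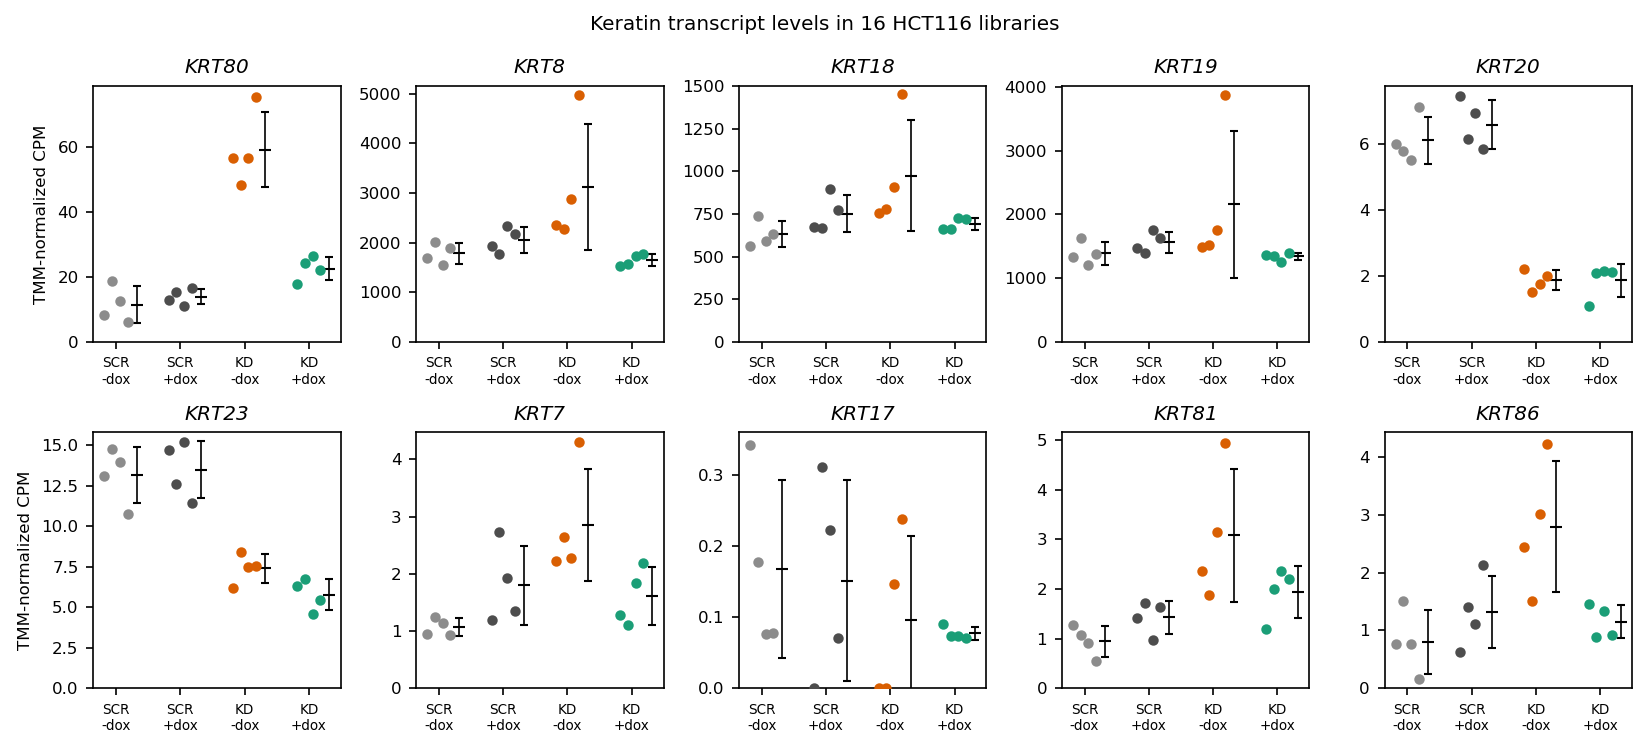
TMM-normalized CPM of each keratin in every library (points, 4 per group), with the mean and SD of each group as a bar beside them and its own linear axis from 0 for each gene. KD stands for the libraries labelled NAA40-KD, and *KRT20* and *KRT23* are lower in both KD groups than in both SCR groups, while the single high point in the KD -dox panels of *KRT8*, *KRT18* and *KRT19* is replicate 4.

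The comparison of NAA40-KD (+dox) with SCR (+dox) uses none of the libraries in which *KRT80* was noticed, and it asks how the lines differ when both are labelled as dox-treated. *KRT20* and *KRT23* were lower in NAA40-KD (+dox), by 3.49-fold and 2.35-fold. *KRT80* was 1.62-fold higher, below the limit of an absolute log2 fold change of 1. A gene was called at an adjusted p under 0.05 beyond that limit. Of the 9 members that passed the filter of CPM >1 in at least 4 libraries, 2 were called, both lower, where 2.15% of the 13869 genes tested were called (0.346% higher and 1.8% lower). Without the fold limit, 4 members passed, 1 higher and 3 lower, where 24.5% of all genes did. All 4 libraries of NAA40-KD (+dox) lay above all 4 of SCR (+dox) for 1 member (13.5% of all genes) and below them for 4 members (13.5% of all genes). The median log2 fold change of the members was -0.23, against -0.0042 over all genes. *NAA40* itself differed by 0.15 ± 0.096 (SE, adjusted p = 0.281, quasi-likelihood test of edgeR, Benjamini-Hochberg adjusted).

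*KRT20* (chr17:40875941-40885227, minus strand) was read at 7.43, 6.15, 6.92 and 5.83 CPM in SCR (+dox) and at 1.10, 2.07, 2.14 and 2.13 CPM in NAA40-KD (+dox). The groups did not overlap, and the highest NAA40-KD (+dox) library held less than the lowest SCR (+dox) library. Its log2 fold change was -1.80 ± 0.20 (SE), with an adjusted p of 4.26e-06 in edgeR's quasi-likelihood test. These values rest on 79 to 94 counts per SCR (+dox) library and 12 to 30 counts per NAA40-KD (+dox) library. *KRT20* overlaps no other gene and has no sequence window of 50 bases in common with one. Without replicate 1 of NAA40-KD (+dox), its lowest library, the log2 fold change was -1.63.

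*KRT23* (chr17:40922696-40937634, minus strand), a type I keratin described in colon tumours, stood at 14.7, 12.6, 15.2 and 11.4 CPM in SCR (+dox) and at 6.30, 6.74, 4.58 and 5.46 CPM in NAA40-KD (+dox). Again every NAA40-KD (+dox) library was below every SCR (+dox) library. The log2 difference of -1.23 ± 0.15 (SE) had an adjusted p of 9.52e-06 in edgeR, and both *KRT20* and *KRT23* stayed called under all 16 alternatives that were run. An antisense gene, *AC004231.1*, shares 186 exonic bases with *KRT23*.

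*KRT80* (chr12:52168996-52192000, minus strand), a type II keratin found near desmosomes of many epithelia, was read at 12.7, 15.3, 11.2 and 16.4 CPM in SCR (+dox) and at 17.9, 24.2, 26.3 and 22 CPM in NAA40-KD (+dox). The groups did not overlap, although the lowest NAA40-KD (+dox) library lay just above the highest SCR (+dox) library. The log2 difference of 0.69 ± 0.14 (SE) had an adjusted p of 0.00176 in edgeR, past the threshold on p and short of the one on fold. In a fit of all 16 libraries together, which shares 1 estimate of the spread, the adjusted p was 0.141.

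The simple keratins differed little between these groups. *KRT8* was read at 1921, 1767, 2343 and 2177 CPM in SCR (+dox) and at 1537, 1564, 1735 and 1766 CPM in NAA40-KD (+dox). All 4 NAA40-KD (+dox) libraries lay below all 4 SCR (+dox) libraries, the closest values being 1766 and 1767 CPM. The log2 fold change of *KRT8*, -0.32 ± 0.099 (SE), had an adjusted p of 0.0239 in edgeR. This p rose to 0.402 in the fit of all 16 libraries, to 0.0545 without replicate 4 of SCR (+dox), and to 0.0888, 0.0830 and 0.0517 without replicates 1, 2 and 3 of NAA40-KD (+dox). *KRT19* averaged 1562 ± 163 CPM in SCR (+dox) and 1339 ± 55.3 CPM in NAA40-KD (+dox), again without overlap. The log2 difference of -0.23 ± 0.091 (SE) had an adjusted p of 0.0708 in edgeR, 0.0493 in DESeq2 and 0.0225 without replicate 2 of SCR (+dox). When 1 library was left out, the adjusted p in edgeR ranged from 0.0225 to 0.222. Over all 16 alternatives it reached 0.648, in edgeR, and 14 of them left *KRT19* short of the threshold. *KRT18* averaged 752 ± 109 and 693 ± 34.7 CPM, and the groups overlapped (log2 fold change -0.12 ± 0.098, SE, adjusted p = 0.379, edgeR).

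The low keratins could not be separated at this depth. *KRT7* averaged 1.80 ± 0.695 CPM in SCR (+dox) and 1.61 ± 0.503 CPM in NAA40-KD (+dox), with an adjusted p of 0.749 in edgeR. *KRT81* averaged 1.43 ± 0.334 and 1.94 ± 0.522 CPM (adjusted p = 0.242, edgeR), and *KRT86* 1.32 ± 0.628 and 1.15 ± 0.288 CPM (adjusted p = 0.646, edgeR). These 3 genes had 8 to 35 counts per library in this comparison. The log2 fold change of *KRT7* turned from -0.15 to 0.11 without replicate 2 of SCR (+dox), and that of *KRT86* from -0.24 to 0.11 without replicate 4 of SCR (+dox). *KRT17* had 0 to 4 counts per library in all 16 libraries and passed the filter in none of the fits. Its 6 listed pseudogenes together had 4 to 17 counts per library.

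**Figure D3:**
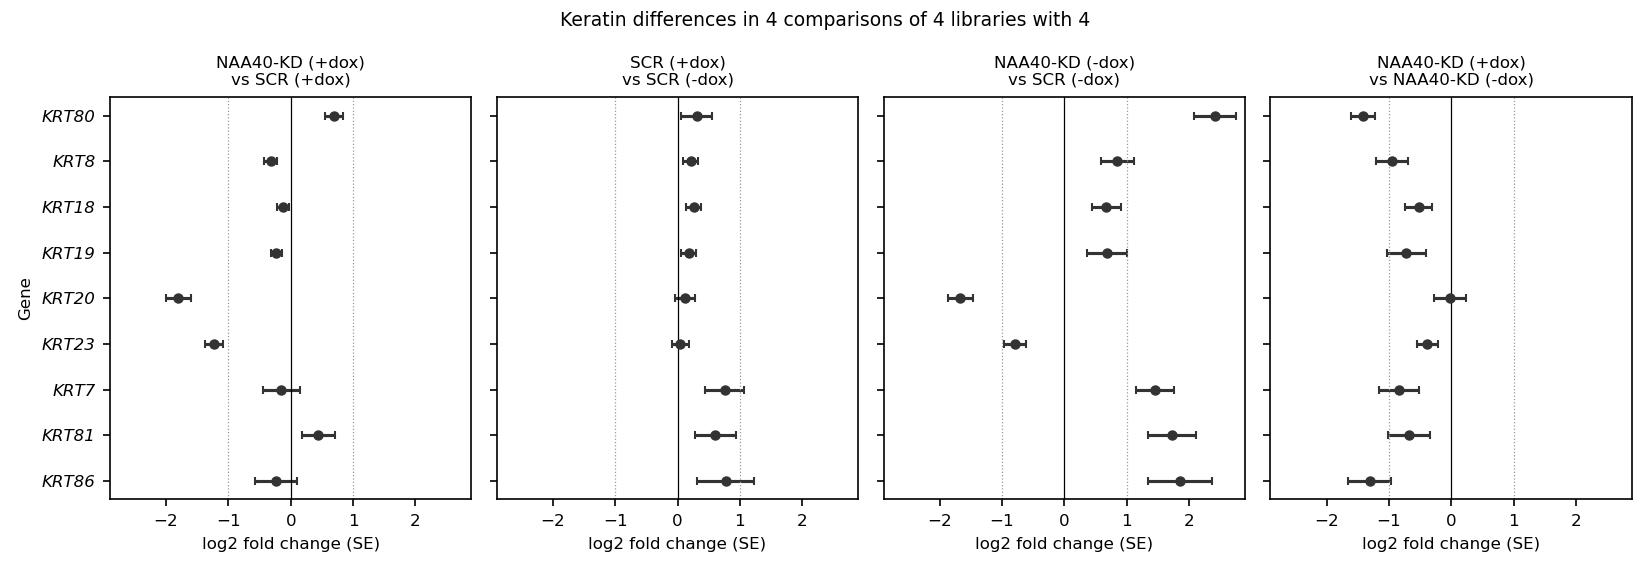
Log2 fold change of the 9 keratins that passed the filter in each of the 4 comparisons of 4 libraries with 4 (points, with SE as bars, first-named group minus second, dotted lines at -1 and 1). *KRT20* and *KRT23* lie below -1 in the (+dox) comparison of the lines, and no member lies beyond 1 in the SCR line.

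Within the SCR line, where the hairpin is scrambled, the libraries labelled SCR (+dox) were compared with those labelled SCR (-dox). Of the 9 members 0 were called, as 0% of the 13882 genes tested were, and without the fold limit the figure was also 0%. DESeq2 and limma-voom called 0 members too. At an unadjusted p under 0.05, 2 members passed in edgeR, *KRT18* and *KRT7*, where 1.95% of all genes did, and no member had groups that did not overlap (1.56% of all genes). Log2 fold changes were positive for all 9 members and for 6880 of all 13882 genes. The median of the members was 0.26, against -0.0016 over all genes. *KRT20* was read at 5.99, 5.79, 5.52 and 7.12 CPM in SCR (-dox), a range that overlaps that of SCR (+dox). *KRT23* stood at 13.1, 14.8, 13.9 and 10.8 CPM there. The log2 fold changes of *KRT20* and *KRT23* were 0.12 ± 0.16 and 0.05 ± 0.14 (SE), each with an adjusted p of 1.00 in edgeR. *KRT18* differed by 0.26 ± 0.12 and *KRT7* by 0.76 ± 0.31 on the same scale, neither of which passed the adjustment. *KRT80* was spread widely in SCR (-dox), at 8.13, 18.8, 12.6 and 5.96 CPM, and its log2 fold change of 0.31 ± 0.25 (SE) is given with no test, because SCR (-dox) was the reference of the comparison that selected it.

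The comparison of NAA40-KD (-dox) with SCR (-dox) is the one that selected the members. *KRT80* was read at 56.5, 48.3, 56.7 and 75.3 CPM in the former and at most 18.8 CPM in the latter. Its log2 fold change was 2.42 ± 0.34 (SE), and 2.26 without replicate 4 of NAA40-KD (-dox). *KRT20* was read at 2.22, 1.51, 1.76 and 1.99 CPM and *KRT23* at 6.21, 8.38, 7.49 and 7.56 CPM, below every SCR (-dox) library for both genes. Their log2 fold changes were -1.67 ± 0.20 and -0.79 ± 0.17 (SE), and -1.72 and -0.83 without that replicate. For the simple keratins the size of the difference depended on replicate 4. *KRT8* was read at 2353, 2269, 2874 and 4983 CPM, *KRT18* at 755, 782, 911 and 1457 CPM, and *KRT19* at 1495, 1512, 1749 and 3870 CPM, with the highest value of each in replicate 4. Against SCR (-dox), where they averaged 1788 ± 211, 633 ± 75.9 and 1387 ± 178 CPM, their log2 fold changes were 0.85 ± 0.26, 0.67 ± 0.23 and 0.68 ± 0.32 (SE). Without replicate 4 these were 0.49, 0.37 and 0.20, smaller but of the same sign. Every NAA40-KD (-dox) library lay above every SCR (-dox) library for *KRT8* and *KRT18*, whereas the groups overlapped for *KRT19*.

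The hair keratins and *KRT7* were also higher in NAA40-KD (-dox), at a few CPM. *KRT7* averaged 2.86 ± 0.978 CPM against 1.07 ± 0.157, *KRT81* 3.09 ± 1.34 against 0.953 ± 0.312, and *KRT86* 2.80 ± 1.13 against 0.801 ± 0.556. The log2 fold changes were 1.45 ± 0.30, 1.73 ± 0.38 and 1.85 ± 0.51 (SE), and 1.16, 1.39 and 1.56 without replicate 4 of NAA40-KD (-dox). *KRT81* and *KRT86* share much of their sequence, and how reads from it were counted is not given. Their values may therefore not be 2 separate observations. The next counts are set beside the share over all genes as a description only, and nothing is read from them. By the rule with the fold limit, 4 of 9 members were past the thresholds, *KRT80*, *KRT7* and *KRT81* higher and *KRT20* lower, beside 3.47% of 13903 genes (1.63% higher and 1.85% lower). The count was 2 without any 1 of the SCR (-dox) libraries and 5 without replicate 4 of NAA40-KD (-dox). With no fold limit it was 5 of 9, beside 6.42%. Groups did not overlap for 5 members that were higher (9.13% of all genes) and 2 that were lower (12.6% of all genes). The median of the members was 0.85, against 0.038 over all genes.

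NAA40-KD (+dox) and NAA40-KD (-dox) were set side by side within the knockdown line. This comparison shares the 4 libraries that selected the members and is likewise given with no test. *KRT20* was read at 1.86 ± 0.510 and 1.87 ± 0.304 CPM, and its log2 fold change was -0.01 ± 0.26 (SE). *KRT23* averaged 5.77 ± 0.955 and 7.41 ± 0.896 CPM, a log2 difference of -0.38 ± 0.17. *KRT80* was lower in NAA40-KD (+dox), with a log2 fold change of -1.41 ± 0.19 (SE), or -1.25 without replicate 4 of NAA40-KD (-dox). *KRT86* differed by -1.31 ± 0.34 and by -1.04 without that replicate. *KRT8* differed by -0.95 ± 0.25, *KRT19* by -0.72 ± 0.31 and *KRT18* by -0.52 ± 0.22 on that scale, and these became -0.61, -0.25 and -0.24. *KRT7* (-0.84 ± 0.31) and *KRT81* (-0.68 ± 0.34) became -0.55 and -0.34. Nothing is read from the following counts either. By the rule with the fold limit 2 members, *KRT80* and *KRT86*, were past the thresholds and lower, beside 3.99% of 13844 genes (1.59% higher and 2.4% lower). *KRT80* alone was left without any 1 of the NAA40-KD (+dox) libraries or without replicate 1 or 3 of NAA40-KD (-dox). With no fold limit the count was 3, beside 10.2%. All NAA40-KD (+dox) libraries were below all NAA40-KD (-dox) libraries for 6 members (13.6% of all genes) and above them for 0 (16.1% of all genes). The median was -0.72, against -0.044 over all genes.

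Since keratin chains work in pairs, the balance of partners was also described. The ratio of *KRT8* to *KRT18*, both in CPM per kilobase, was 1.32 (range 1.22 to 1.40) in SCR (-dox), 1.28 (1.22 to 1.34) in SCR (+dox), 1.11 (1.08 to 1.15) in NAA40-KD (+dox) and 1.47 (1.36 to 1.60) in NAA40-KD (-dox). The NAA40-KD (+dox) libraries lay below those of all other groups, and the NAA40-KD (-dox) range, whose top value is replicate 4, overlapped that of SCR (-dox). The sum of the type II members over the sum of the type I members was 0.330, 0.333, 0.312 and 0.391 in the same order. These ratios depend on the annotated exon lengths and on the exonic bases the genes share, and no test was run on them.

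**Figure D4:**
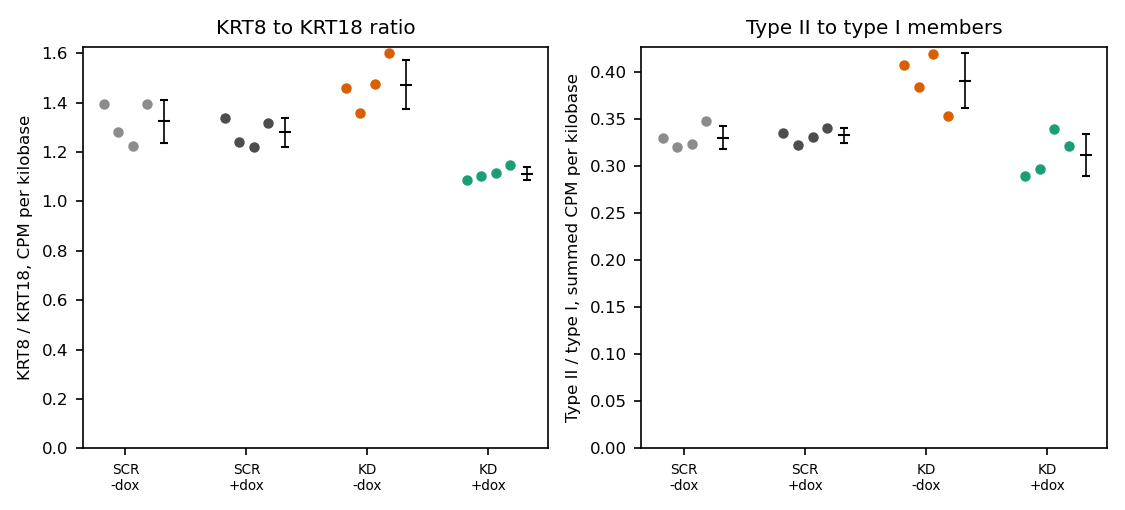
Ratio of *KRT8* to *KRT18* (left) and of summed type II to summed type I members (right), from CPM per kilobase of exon, in each of 16 libraries (points) with mean and SD of each group as bars. KD stands for NAA40-KD. The 4 KD +dox libraries have the lowest *KRT8* to *KRT18* ratios, between 1.08 and 1.15, and the KD -dox libraries reach 1.60.

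Over the 16 libraries the levels of the simple keratins varied together, with a Pearson r of 0.94 in log2 CPM for each pair of *KRT8*, *KRT18* and *KRT19*, and 0.84 to 0.86 without replicate 4 of NAA40-KD (-dox). *KRT20* and *KRT23* had an r of 0.86 across all libraries and of -0.37 within groups, after group means were removed. *KRT80* had an r of 0.87 with *KRT81*, 0.83 with *KRT86* and -0.74 with *KRT20* across all libraries. Within groups its r was 0.64, 0.77 and 0.01 with the same genes. Points of the same group share treatment and line, so the values across all libraries describe the groups as much as the genes. Of 14391 genes, those with the highest r to *KRT80* were *ZNF333*, *CHST6*, *EZR* and *RTL10* (0.95 each) and *AL512274.1* (0.94). *EZR*, which encodes ezrin, a linker of membrane and actin in microvilli, averaged 2182 ± 152 CPM in SCR (-dox), 2307 ± 82.9 in SCR (+dox), 2650 ± 24.9 in NAA40-KD (+dox) and 3501 ± 302 in NAA40-KD (-dox). *ZNF333*, a zinc finger gene, ran in the same order, at 11.5 ± 2.11, 12.6 ± 1.84, 15.7 ± 1.22 and 25.8 ± 1.30 CPM. Both were picked by their r to *KRT80* in these same libraries, so this order follows from the choice and is no separate observation.

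Of the other 33 keratin genes, 5 passed the filter in the comparison of NAA40-KD (+dox) with SCR (+dox). Of these 0 were called, where 2.15% of all genes were. All 5 log2 fold changes were negative, while 6864 of all 13869 genes had a positive one. *KRT10*, a type I keratin of the suprabasal epidermis, averaged 21.5 ± 0.949 against 28.4 ± 6.18 CPM (log2 fold change -0.41, adjusted p = 0.0265, edgeR), and *KRT15*, a type I keratin of basal cells, 53.9 ± 4.04 against 70.1 ± 8.56 CPM (-0.39, adjusted p = 0.0110, edgeR). *KRT32*, *KRT13* and *KRT222* had log2 fold changes of -0.56, -0.49 and -0.22, none past the threshold. *KRT16* and *KRT34* passed the filter in other comparisons only. Between the knockdown groups, as a description, the hair keratins *KRT34* and *KRT32* were lower in NAA40-KD (+dox), by log2 fold changes of -2.14 and -1.60. *KRT34* averaged 0.374 against 1.69 CPM and *KRT32* 1.11 against 3.34 CPM. *KRT13* was lower in NAA40-KD (-dox) than in SCR (-dox), by -1.66, at 0.627 against 2.04 CPM. These rest on few counts, with 2 to 6 per NAA40-KD (+dox) library for *KRT34* and 11 to 17 for *KRT32*. *KRT13* had 3 to 11 per NAA40-KD (-dox) library.

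Partners of the keratin filament were read from lists of related genes. In the (+dox) comparison of the lines 0 of 11 desmosome and plakin genes were called, 0 of 10 hemidesmosome and cytolinker genes, and 0 of 20 adhesion and tight junction genes, where 2.15% of all genes were. By the adjusted p alone, 1 desmosome and plakin gene was higher and 2 were lower, and 3 hemidesmosome and cytolinker genes were lower. Of the adhesion list 1 was higher and 3 were lower by that rule, where 24.5% of all genes passed. Of 7 other intermediate filament genes 1 was called, *PRPH*, the neuronal peripherin, at 1.58 against 4.87 CPM. Of 5 intestinal differentiation genes 1 was called, *CDHR5*, a protocadherin of the brush border, which rose from 1.35 to 2.83 CPM (log2 fold change 1.06, adjusted p = 0.0123, edgeR), but the count was 0 without replicate 3 of SCR (+dox), with CPM >1 in every library, and in the fit of all 16 libraries. Of 20 transcription factors of epithelial differentiation 2 were called, both lower, *KLF6* (-1.08) and *CEBPB* (-1.05), and 1 without replicate 3 or 4 of SCR (+dox) or replicate 2 of NAA40-KD (+dox), with limma-voom, with the replicate block, and in the fit of all 16 libraries. Of 10 AP-1 subunits, *ATF3* was called (-1.08, adjusted p = 1.99e-05, edgeR), although the count was 0 without replicate 4 of NAA40-KD (+dox) and 2 without replicate 1 of SCR (+dox). Without the fold limit 6 of the 10 were lower, where 1896 of 13869 genes were, among them *JUN* (-0.79) and *JUNB* (-0.85), with a list median of -0.64 against -0.0042 over all genes. In the SCR line, 0 genes of any of these lists were called, as 0% of all genes were.

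In the comparison that selected the members, as a description, 4 of 20 adhesion and tight junction genes were higher in NAA40-KD (-dox) and past both thresholds, beside 1.63% of all genes. Among them were the tight junction adaptors *TJP3* (log2 fold change 1.52) and *CGN* (1.41), and *CLDN4* (1.37), which forms the junction strand, and the list median was 0.44 against 0.038 over all genes. *PPL*, which encodes periplakin, a linker of keratin filaments to desmosomes, was higher by 1.08 and *DSC2*, a desmosomal cadherin, lower by -1.07. *NES* (-1.03, 1 of 7 in its list), *FOS* (-1.80, 1 of 10) and *CDHR5* (2.26, 1 of 6) were past the thresholds in their lists. Over all genes 1.63% were higher and 1.85% lower by the same rule. These list counts moved with single libraries. The adhesion list gave 2 without replicate 1, 3 or 4 of SCR (-dox) and 4 without replicate 4 of NAA40-KD (-dox), and the desmosome and plakin list gave 0 without any 1 of the 8 libraries. The count for *NES* was 0 without any 1 library other than replicate 4 of NAA40-KD (-dox), that for *CDHR5* 0 without any 1 of the SCR (-dox) libraries or replicate 2 of NAA40-KD (-dox), and the AP-1 list gave 0 to 2. The other keratins, with *KRT13*, gave 0 without any 1 of the SCR (-dox) libraries or replicate 1 or 2 of NAA40-KD (-dox), and 2 without its replicate 4.

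Within the knockdown line, also as a description, the desmosomal genes *JUP* (-1.20) and *PPL* (-1.14) were lower in NAA40-KD (+dox) than in NAA40-KD (-dox). *DSC2* was higher (1.11). Of 11 desmosome and plakin genes 1 was higher and 2 lower past both thresholds, beside 1.59% and 2.4% of 13844 genes. Nothing is read from the counts of this paragraph. The desmosome and plakin list gave 0 without any 1 of the NAA40-KD (+dox) libraries or replicate 4 of NAA40-KD (-dox). *CLDN4* (-1.02) and *TJP3* (-1.35) of the adhesion list were lower too. That list went from 3 of 20 genes to 0 without any 1 of the NAA40-KD (+dox) libraries. It went to 1 without replicate 4 of NAA40-KD (-dox). *LAMB3* (-1.52, 1 of 10 in its list), a laminin chain of the hemidesmosome, and *PRPH* (-1.56, 1 of 7 in its list) were lower in NAA40-KD (+dox). So were *TFAP2C* (-1.02, 1 of 20 in its list) and *BATF2* (-1.38, 1 of 10 in its list). The list of *TFAP2C* gave 0 without replicate 3 of either group. That of *BATF2* gave 0 without replicate 1, 3 or 4 of NAA40-KD (+dox). The other keratins, with *KRT34* and *KRT32* of 5 tested, gave 1 without any 1 of the 8 libraries.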

How the data were processed

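The data are 16 sequenced RNA samples of HCT116 cells, 4 in each of 4 groups taken from the labels. The authors used STAR for alignment and featureCounts for counting, and deposited raw counts of 33937 genes that were not normalized. The paper names the mouse build mm10 and the labels name hg38 and GRCm38, while all identifiers are human. Kits also differ between the paper and the labels. Symbols were found for 33590 identifiers, and 33811 were placed on GRCh38 with GENCODE release 29. The number of count columns without a sample was 0.

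Each comparison was fitted on its own 8 libraries with edgeR 4.0.16 in R 4.3.3, using TMM, genes with CPM >1 in at least 4 libraries, robust two-sided quasi-likelihood tests and Benjamini-Hochberg adjustment over all genes tested. The thresholds for a call were 0.05 on the adjusted p and 1 on the absolute log2 fold change. Standard errors are the fold change over the square root of F. The script was tested on simulated data. Levels are mean ± SD of 4 libraries. Correlations used log2 CPM with a prior count of 2. Alternatives were DESeq2 1.42.0, limma-voom (limma 3.58.1), other normalizations and filters, 1 fit of all 16 libraries, a replicate block, and each library left out in turn.

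Members and lists were chosen with earlier results of these data known. Named genes are the members, *NAA40*, other keratins past the filter, up to 4 called genes per list and comparison, and the 5 genes most like *KRT80*. A listed gene is not reported here by name, though the counts include it. *JUN* and *JUNB* were named after their values were seen. Pairs of libraries of a group differed beyond sampling noise, with a chi-square per degree of freedom of 1.79 to 156. The methods state independent RNA samples, but if these share a culture, p-values measure technical spread only. Replicate numbers were not taken to pair libraries, since in no comparison did every same-numbered pair correlate above 0.1.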

Additional observations from a re-analysis of the deposited data

Results flagged for a closer look

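Of 36 sets of 4 libraries examined, 1 for each tested keratin and group, 2 held a library whose gap to the nearest other, divided by the range of the set, was above Dixon's 95% critical value, a gap that chance gives in about 1 in 20 sets. *KRT19* in replicate 4 of NAA40-KD (-dox) stood at 3870 CPM, and its other libraries at 1495 to 1749 CPM (ratio 0.893). That library also held the highest *KRT8* and *KRT18*, and its genes differed from the rest of the group by a median of 0.759 on the log2 scale. *KRT20* in replicate 1 of NAA40-KD (+dox) stood at 1.10 CPM, from 12 counts, and the others at 2.07 to 2.14 CPM (ratio 0.935).

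The differences of *KRT8* between the lines had opposite signs. Every NAA40-KD (+dox) library was below every SCR (+dox) library, with a log2 fold change of -0.32, and every NAA40-KD (-dox) library was above every SCR (-dox) library, with 0.85, or 0.49 without replicate 4. This difference was not tested, because it contains the comparison that selected the members.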

How the results depend on the processing

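Of the members, 2 were called in the (+dox) comparison of the lines under every alternative with the fold limit, and 4 passed when the threshold on the fold was dropped and nothing else was altered. The SCR line gave 0 under every alternative. In NAA40-KD (-dox) against SCR (-dox) the count of 4 became 2 with CPM >1 in every library and 2 with the replicate block. It became 2 to 5 when 1 library was left out. *KRT86* came past both thresholds with DESeq2 and with no filter on low counts (log2 fold changes 1.85 and 1.81). The same held in the fit of all 16 libraries (1.84). Within the knockdown line the count of 2 became 1 with limma-voom, with CPM >1 in every library and with the replicate block, and 1 to 3 when 1 library was left out. The replicate block left the counts of members in the other comparisons as they were. Of the related lists, it moved the transcription factors in the (+dox) comparison from 2 to 1, the adhesion list from 4 to 0 in NAA40-KD (-dox) against SCR (-dox) and from 3 to 1 within the knockdown line, and the other lists with a call in NAA40-KD (-dox) against SCR (-dox), except the AP-1 subunits, to 0. In none of the 4 comparisons did every pair of same-numbered libraries correlate above 0.1, although replicates 2, 3 and 4 did within the knockdown line (0.206, 0.116 and 0.237, against 0.034 for replicate 1), each above its best correlation with another number.

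Fold changes turned sign in 9 cases. They were *KRT7* (0.11 without SCR (+dox) replicate 2, range -0.34 to 0.11 when 1 library was left out) and *KRT86* (0.11 without SCR (+dox) replicate 4, range -0.46 to 0.11) in the (+dox) comparison, *KRT23* in the SCR line (-0.0086 without SCR (+dox) replicate 3 and -0.038 without SCR (-dox) replicate 4), and *KRT20* within the knockdown line (0.013 with library size normalization, 0.022 with no filter, and 0.16, 0.07 and 0.04 without NAA40-KD (+dox) replicate 1, NAA40-KD (-dox) replicate 1 and NAA40-KD (-dox) replicate 4, range -0.11 to 0.16). The cause was not tested. Of the other fold changes, 497 kept their direction and their side of the threshold on the adjusted p, 41 were no longer past it and 16 newly passed it. Low counts limit the precision of *KRT7*, *KRT81*, *KRT86* and *KRT17*.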
